A study of Mus musculus with 12 samples.

Results

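The course after optic nerve crush in control eyes was followed in 6 of the 12 libraries of the series: 3 pools of GFP-labelled cells taken 7 days after the crush and 3 taken 14 days after it. Members were chosen by the labels alone, as every library of the control virus at either day, and the comparison runs over all genes that passed the count filter, 14985 of 54232 in the table. The mice were adult wild-type males. Each eye had received AAV-GFP, an adeno-associated virus that carries green fluorescent protein, in the vitreous, and the labels record 14 days of virus for every library at both times. If that time ran up to collection, virus and crush coincided for the day 14 pools, while the virus preceded the crush for the day 7 pools, so time after crush and the interval between virus and crush cannot be told apart. The optic nerve was crushed, cells were separated with CD90.2 beads (CD90.2 is an allelic form of Thy1, a surface protein of ganglion cells), and fluorescent cells, 10 to 20 by the widest of the ranges the labels give, were picked for each pool and labelled retinal ganglion cells. The remaining 6 libraries came from mice that received AAV-Olig1 instead and serve here only to ask whether a course differed between the viruses. No uninjured group is part of the comparison, so both days are times after injury. The labels mention 3 library batches but do not assign the pools to them. In the names under which the libraries were counted, a number is shared by all libraries of a day and differs between the days. What that number stands for is not given, and if it is a batch, day and batch cannot be told apart. They do not name the promoter that drives GFP, and they do not say whether pools came from separate mice, so the spread behind every p-value here is that between pools and may be technical.

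Retinal ganglion cells send their axons through the optic nerve to the brain, and after a crush most of them die over the following weeks. Their early response is known for activation of the DLK and JNK kinases and of the transcription factors Jun and Atf3. Around them, Müller glia become reactive, microglia multiply and take up debris, and interferon and complement genes are often induced in the injured retina.

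Total counts ran from 17088185 to 18770886 at day 7 and from 23951224 to 27602459 at day 14. Levels are given as CPM, counts scaled to a library total of 1000000. A count of 0 therefore allowed up to 0.109 to 0.176 CPM (3 counts), and such floors cover counting error only, because reads amplified over 20 PCR cycles without molecular identifiers are not independent molecules. Genes with at least 1 count numbered 14123, 14695 and 16503 at day 7 and 10129, 15297 and 15163 at day 14, with replicates 1, 2 and 3 given in this order throughout. Day 14 replicate 1 was the sparsest pool: 5882 of the tested genes had 0 counts there, and the 5 others had 1374 to 2766. Immunoglobulin genes took 15.3% of the counts of day 14 replicate 3 and 0.0073% or less of the other 5. The mitochondrially encoded share was 5.11% to 6.34% at day 7 and 3.34% to 4.68% at day 14, and that of ribosomal protein genes was 1.41% to 1.73% and 1.07% to 1.24%. In both measures, and in total count, the days did not overlap, with an exact permutation p of 0.1 each, the smallest that 3 against 3 allows (adjusted 0.2 over 6 library measures). Both shares are of total counts, and their separation depends on that scaling. Across all 54232 genes of the table, libraries of 1 day correlated at a Spearman coefficient of 0.722 to 0.866 (6 pairs) and libraries of different days at 0.702 to 0.818 (9 pairs). The ranges overlapped widely.

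Ganglion cell markers were uneven in the GFP pools, and 3 defining ones were at or near 0. CPM summed over 16 ganglion cell markers was 272, 356 and 218 CPM at day 7 and 424, 363 and 218 CPM at day 14. Pou4f2 and Pou4f3, transcription factors that define ganglion cells, had 0 counts in all 6 libraries, and Slc17a6, their vesicular glutamate transporter, had 0.107 CPM in day 7 replicate 1 and 0 elsewhere. Isl1, a factor that bipolar and amacrine cells also express, made up much of the sum in every pool but day 7 replicate 2, at 200.4, 44.6 and 144 CPM at day 7 and 188, 182 and 119.8 CPM at day 14 (it and the Pou4f genes were named after their values were seen). Rbpms, an RNA-binding protein of ganglion cells, had 0.0533, 76.0 and 2.52 CPM at day 7 and 0.0392, 1.30 and 9.64 CPM at day 14. Its highest level was in day 7 replicate 2. Thy1, the bead target, stood at 9.16, 0.328 and 4.56 CPM at day 7 and 38.8, 0.761 and 3.34 CPM at day 14. The 15 markers of Müller glia, the radial glia of the retina, summed to 68988, 146772 and 81532 CPM at day 7 and 85119, 58676 and 128181 CPM at day 14, and most of these counts were those of Apoe, an apolipoprotein that several cell types express. Rod markers summed to 63444, 13146 and 58709 CPM at day 7 and 4645, 55834 and 20076 CPM at day 14, and bipolar cell markers to 2668, 1359 and 2535 CPM at day 7 and 5997, 5074 and 1664 CPM at day 14. Sums of different lists are not compared with each other, since counts grow with transcript length. Defining markers of Müller glia (Glul, Rlbp1) and rods (Gnat1) were detected in every pool. In pools of this kind, fewer cells of a type and less RNA per cell cannot be told apart. Over the 18 marker sums the smallest exact permutation p was 0.1, the least that 3 against 3 allows, and the smallest adjusted p 0.655, so no sum could pass. The B and plasma cell sum did not overlap between the days, at 62.9, 54.8 and 115 CPM at day 7 and 132, 149 and 132894 CPM at day 14. In the day 7 pools and day 14 replicate 1, most of this sum came from list members other than immunoglobulin genes and Jchain. With TMM library sizes, as in the fit below, the cone and bipolar sums did not overlap either (exact permutation p 0.1 each). The libraries are called GFP pools here, because Pou4f2, Pou4f3 and Slc17a6 were at or near 0. Of the 16 ganglion cell markers, 14, Slc17a6 included, had counts in at least 1 of the 6 libraries. The mean levels of these 14 over the 6 libraries had a median of 11.0 CPM. Whether the picked cells were ganglion cells was not tested.

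**Figure D1:**
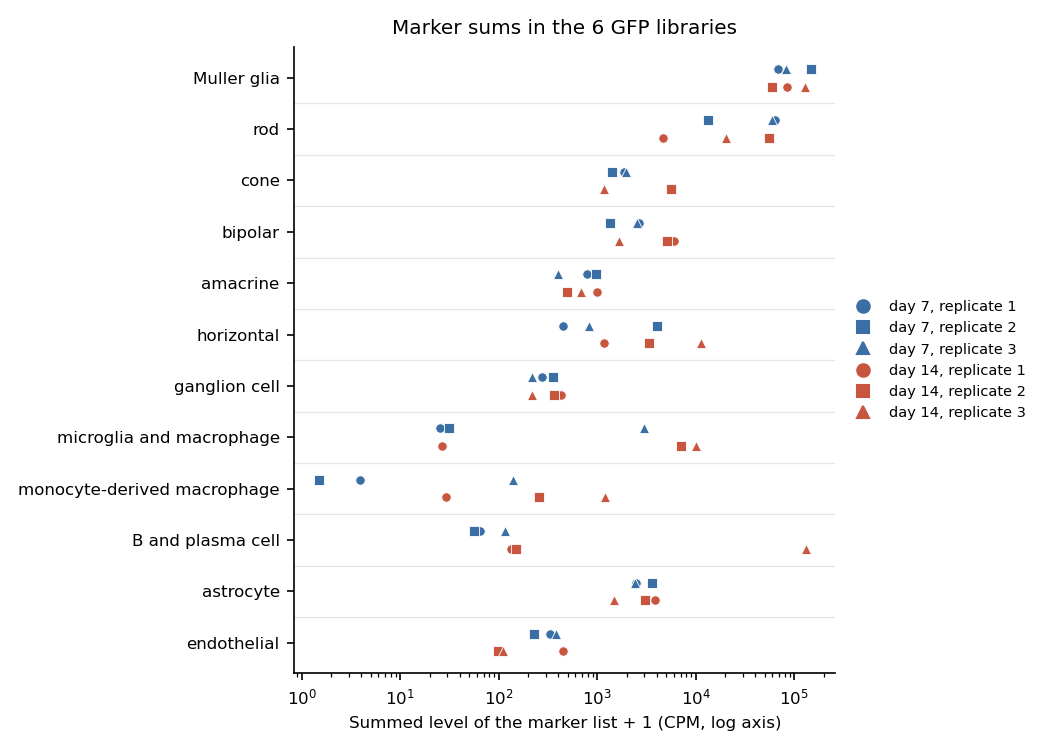
CPM summed over 12 marker lists, plus 1, in each of the 6 GFP libraries on a log axis, with day 7 in blue, day 14 in red and 1 symbol per replicate number. Müller glia, rod and bipolar markers are present in every library. Microglia markers split the libraries of each day, and the B and plasma cell sum was high in day 14 replicate 3 alone.

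No gene passed the test between the days. By edgeR's quasi-likelihood test, with the spread estimated from all 12 libraries, 0 of 14985 genes had an adjusted p under 0.05 in either direction (0.0%), and the smallest adjusted p was 0.340. At an unadjusted p under 0.05, 675 genes had higher values at day 14 (4.5%) and 865 lower ones (5.77%), together 10.3%. The spread between pools was large: the common biological coefficient of variation was 1.351, and the median standard error of a log2 fold change was 1.79. Other tools called some genes on the same counts. The DESeq2 Wald test called 218 genes higher (1.45%) and 428 lower (2.86%), and in 333 of these calls a whole day was at 0. limma voom called 3 higher and 15 lower (0.02% and 0.1%), and edgeR without the count filter called 10 higher and 3 lower of 25032 genes (0.0399% and 0.012%). In CPM, all 3 day 14 libraries lay above all 3 day 7 libraries for 593 genes (3.96%) and below them for 1567 (10.5%). This split depended on scaling: with library sizes scaled by TMM, 1001 genes lay above and 1168 below. Statements below on overlap between the days, or on pools above or below each other, are in CPM, and some change with that scaling. The median log2 fold change of all genes was -0.14, and -0.25 with DESeq2 size factors, and list medians below are to be read against that shift. Where leaving out 1 GFP library turned a list median or moved it by over 1.5 times, the values without that library, or the lowest and highest over the 6, stand beside it.

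The 12 genes with the smallest p among those higher at day 14 had no overlap between the days, and none passed edgeR's test (adjusted p 0.352 to 0.410). All 12 were among the DESeq2 calls, 7 were called by edgeR without the filter and 1 by voom. Actr2, a subunit of the Arp2/3 complex that nucleates branched actin, stood at 26.5, 20.9 and 42.1 CPM at day 7 and 238, 342 and 181 CPM at day 14. Its log2 fold change was 3.40 ± 0.63 (SE). All 3 late pools exceeded the highest early pool by a wide margin. Dpysl2 (ENSMUSG00000022048, chromosome 14, 66802864 to 66868688), on GRCm38, codes for the collapsin response mediator protein CRMP2, which binds tubulin during axon growth. Its values were 102, 63.9 and 58.5 CPM at day 7 and 567, 451 and 338 CPM at day 14, a log2 fold change of 2.89 ± 0.60. The lowest late pool lay well above the highest early one.

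H3f3b (ENSMUSG00000016559, chromosome 11, 116021912 to 116027962) is a gene for the replacement variant of histone H3. It stood at 5173, 2157 and 3828 CPM at day 7 and 9393, 11479 and 8743 CPM at day 14, with a log2 fold change of 1.77 ± 0.36. Here the adjusted p was 0.352 by edgeR, 0.0147 by DESeq2, 0.0182 by voom and 0.00301 by edgeR without the filter. H3f3b was the only gene of the 12 called by all 3 alternatives, and leaving out any 1 GFP library kept its log2 fold change in the range 1.56 to 2.01. Srsf2, a splicing factor of the serine- and arginine-rich family, was measured at 85.8, 95.8 and 47.8 CPM at day 7 and 741, 705 and 381 CPM at day 14. Its exons share 460 bases with Mettl23 on the other strand, and the strand setting of the counting is not given in the sources used here. Selenow, a small selenoprotein with a redox role, stood at 183, 114 and 333 CPM at day 7 and 1162, 1178 and 1027 CPM at day 14. The 3 late values of Selenow were close together and far above the early ones.

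Other genes of this group covered several functions. Mrpl58, a peptidyl-tRNA hydrolase of the mitochondrial ribosome, stood at 19.9, 13.2 and 13.5 CPM at day 7 and 163, 88.0 and 124 CPM at day 14. Values of Tspyl1, a nucleosome assembly protein relative, were 19.9, 22.8 and 44.0 CPM at day 7 and 109, 151 and 111 CPM at day 14. Impact, a regulator of the eIF2 alpha kinase GCN2, stood at 146, 82.5 and 69.8 CPM at day 7 and 322, 638 and 411 CPM at day 14. A further 3 genes were near the detection floor at day 7. Kif5a, a neuronal kinesin that carries cargo along axons, had 0.107, 0.109 and 0.527 CPM at day 7 and 8.39, 11.4 and 7.64 CPM at day 14. Scn2b, a beta subunit of neuronal sodium channels, had 0.639, 0.274 and 0.117 CPM at day 7 and 16.6, 15.0 and 9.27 CPM at day 14. Gstm6, a glutathione transferase, had 0.0533, 0.0547 and 0.176 CPM at day 7 and 18.4, 9.02 and 8.60 CPM at day 14. In these 3 genes every early pool was at 0.639 CPM or less and every late pool far above that.

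**Figure D2:**
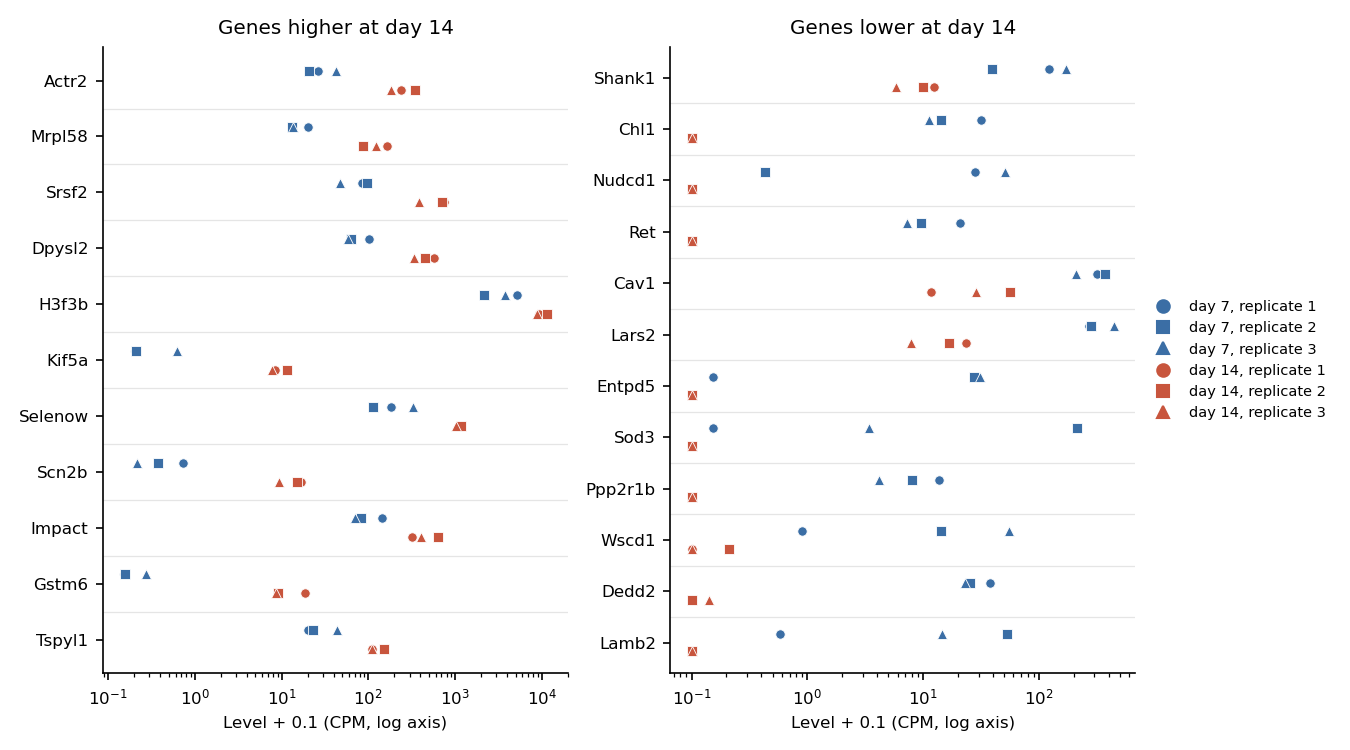
Level of the genes with the smallest p on each side that are described in the text, in CPM plus 0.1 on a log axis, for the 6 GFP libraries (day 7 blue, day 14 red, 1 symbol per replicate number). The days do not overlap in any gene shown, and points at the left edge of the right panel are libraries with 0 counts.

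Among the 12 genes with the smallest p on the lower side (edgeR adjusted p 0.352 to 0.424), 7 had 0 counts in all 3 late pools. DESeq2 called the 11 it gave an adjusted p, edgeR without the filter 3 and voom 2. Shank1 (ENSMUSG00000038738, chromosome 7, 44310253 to 44360572), a scaffold of excitatory synapses, stood at 122, 38.8 and 169 CPM at day 7 and 12.4, 9.93 and 5.72 CPM at day 14, a log2 fold change of -3.24 ± 0.61. Cav1, which forms the coat of caveolae and in the retina is abundant in Müller glia and vessels, stood at 318, 371 and 207 CPM at day 7 and 11.5, 55.9 and 28.6 CPM at day 14, a log2 fold change of -2.92 ± 0.68. Both genes were detected in every pool, and their late values were a small part of the early ones. Lars2, the mitochondrial leucyl-tRNA synthetase, had 272, 282 and 445 CPM at day 7 and 23.1, 16.5 and 7.68 CPM at day 14 (log2 fold change -4.16 ± 0.97).

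Several genes with neuronal or glial roles were present in every early pool and absent, or nearly so, from the late ones. Chl1, a cell adhesion molecule of the L1 family that takes part in neurite growth, stood at 31.6, 14.1 and 11.0 CPM at day 7 and had 0 counts in all 3 late pools, so its level was at least 493-fold lower against a floor of 3 counts over the group. Such bounds and counting intervals, here and below, cover counting error only and not the spread between pools. Voom gave Chl1 an adjusted p of 0.0182 and DESeq2 one of 1.02e-10. Ret, the receptor tyrosine kinase of the GDNF family of survival factors, stood at 20.6, 9.41 and 7.20 CPM and then 0, at least 323-fold lower. Neither gene had a single read in the late pools. Ppp2r1b, a scaffold subunit of protein phosphatase 2A, stood at 13.5, 7.88 and 4.04 CPM and then 0, at least 221-fold lower. Its exons share 1429 of 6449 bases with Sik2 on the other strand. Dedd2, a death effector domain protein, stood at 37.2, 25.4 and 22.6 CPM at day 7 and 0, 0 and 0.0418 CPM at day 14, a ratio of pooled counts of 2207 (95% exact counting interval 395 to 87215).

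For 5 genes of this group the early level itself was uneven. Nudcd1, which shares 266 bases with Eny2 on the other strand, had 27.6, 0.328 and 51.0 CPM at day 7. Entpd5, a nucleotidase of the endoplasmic reticulum, had 0.0533, 27.1 and 30.8 CPM. Sod3, the extracellular superoxide dismutase, had 0.0533, 212 and 3.28 CPM, and Lamb2, a laminin chain of basement membranes, had 0.479, 52.6 and 14.5 CPM. All 4 had 0 counts in the late pools, but only 1 or 2 early pools carried most of their reads. Wscd1 stood at 0.799, 14.1 and 55.0 CPM at day 7 and 0, 0.109 and 0 CPM at day 14, a ratio of 576 (95% exact counting interval 197 to 2795). Over all tested genes, 710 were at 0 in the 3 late pools only and 404 in the 3 early pools only. In 3747 genes, day 14 replicate 1 was at 0 while the other late pools had counts.

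The smallest p of all belonged to an unnamed transcript model. CT010467.1 (ENSMUSG00000106106, chromosome 17, 39846353 to 39848827) stood at 7919.9, 12404 and 11707 CPM at day 7 and 633, 694 and 686 CPM at day 14, a log2 fold change of -3.68 ± 0.62 (edgeR adjusted p 0.340, DESeq2 0.000142). The 3 late values lay within a narrow band far under the early ones. Its exons share 1822 of 2466 bases with Gm42418 on the other strand and 923 with AY036118 on the same strand. Both of these had 0 counts in the GFP libraries. Gm26917, another model on chromosome 17, stood at 192, 512 and 321 CPM at day 7 and 0, 4.20 and 4.43 CPM at day 14. Models at this place, like Lars2, are known to collect reads derived from ribosomal RNA in mouse data. The mitochondrial ribosomal RNAs were lower in every late pool too. mt-Rnr2 had 7806, 7684 and 14140.2 CPM at day 7 and 3169.7, 3222 and 2371 CPM at day 14. Malat1, a long nuclear noncoding RNA, had 15273, 12304 and 18737 CPM at day 7 and 6259, 7498 and 5966 CPM at day 14. CT010467.1, Gm26917 and Malat1 were named after their values were seen. In the Olig1 pools the course of CT010467.1 was -4.10 ± 0.63 and passed the test there (adjusted p 0.0282), and that of Lars2 was -4.95 ± 1.01.

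Genes for the nuclear-encoded subunits of the respiratory chain and ATP synthase, the machinery of oxidative phosphorylation, had higher values at day 14 almost without exception. Of 57 tested genes, 56 had a positive log2 fold change and 1 a negative one, with a median of 0.87, against 45.5% positive and a median of -0.14 over all genes. In 18 of them (31.6%) every late pool lay above every early pool, against 3.96% of all genes, and 20 had an unadjusted p under 0.05. None passed the adjusted test. The sum over the list was 18180.1, 13972 and 16980.2 CPM at day 7 and 26283, 25736 and 18705 CPM at day 14, with no overlap but little distance between the lowest late and the highest early pool. Leaving out any 1 GFP library kept the median between 0.84 and 0.95, and with DESeq2 size factors it was 0.76.

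The pattern ran through all 5 complexes. Complex I, which takes electrons from NADH, had 25 of 25 genes positive and a median of 0.89. Its subunit Ndufv2 stood at 381, 248 and 359 CPM at day 7 and 1244, 846 and 693 CPM at day 14, a log2 fold change of 1.80 ± 0.48. Ndufb9 stood at 198, 159 and 196 CPM at day 7 and 404, 444 and 349 CPM at day 14. In both genes the 3 late pools were above the 3 early ones. Complex II had 4 of 4 positive (median 0.49), complex III 7 of 7 (0.58), complex IV 10 of 10 (0.95) and ATP synthase 10 of 11 (0.71). Among 2 further members, chosen after their values were seen, Uqcrq of complex III stood at 219, 133 and 225 CPM at day 7 and 685, 515 and 438 CPM at day 14, and Atp5c1 of ATP synthase at 532, 321 and 658 CPM at day 7 and 1866, 1199.5 and 831 CPM at day 14. Gene length and level moved with the fold change: among the 3744 genes with the shortest exons the median was 0.15 with 53.9% positive, and among the 3746 with the highest mean CPM it was 0.11 with 54.3% positive. The list had a median exon length of 1916 bases and a median level of 255 CPM, and the part of length and level in the result was not tested.

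The mitochondrial genome's own genes did not share this direction. Of 14 tested genes 12 had negative values (median -0.55, from -0.67 without day 7 replicate 1 to -0.11 without day 14 replicate 1), and in 9 every late pool lay below every early pool in CPM (64.3%, against 10.5% of all genes). The list summed to 61620, 51051 and 63422 CPM at day 7 and 33422, 46818 and 41193 CPM at day 14. This separation depended on scaling. With TMM factors of 0.722 for day 14 replicate 3 and 1.00 to 1.25 at day 7, that late pool has the highest sum. mt-Rnr1, the small ribosomal RNA, stood at 647, 675 and 1490.4 CPM at day 7 and 227, 330.1 and 94.7 CPM at day 14. Of 2 members chosen after their values were seen, mt-Nd2 of complex I had 2516, 2242 and 2169 CPM at day 7 and 679, 1044 and 788 CPM at day 14. The other, mt-Cytb of complex III, overlapped at 27842, 21103 and 22083 CPM at day 7 and 16708, 24936 and 21929 CPM at day 14. In the glycolysis list 15 of 22 genes were positive (median 0.35, 0.58 without day 7 replicate 2). Ldhb, the lactate dehydrogenase subunit that favours lactate use, stood at 836, 706 and 569 CPM at day 7 and 1578, 1672 and 1755 CPM at day 14, a log2 fold change of 1.59 ± 0.39, and its late values lay in a narrow band above the early ones. Aldoa, a fructose-bisphosphate aldolase, had 10842, 7303 and 13469 CPM at day 7 and 18935, 20636 and 13415 CPM at day 14 and was called by voom (adjusted p 0.0431), with 1 late pool just under the highest early pool.

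Subunits of the proteasome, the protease complex that degrades ubiquitin-tagged proteins, also had mostly higher values. Of 31 genes 26 were positive, the median was 0.81, and 5 (16.1%) had every late pool above every early pool, against 3.96% of all genes. The summed level was 5086, 3861 and 4299.9 CPM at day 7 and 7115, 6688 and 6132 CPM at day 14, with no overlap. Psmc5 and Psmc1 code for ATPases of the cap that unfold substrates. Psmc5 stood at 166, 194 and 117 CPM at day 7 and 477, 586 and 307 CPM at day 14, a log2 fold change of 1.77 ± 0.46. Psmc1 stood at 102, 111 and 94.7 CPM at day 7 and 331, 256 and 252 CPM at day 14. The 6 ATPases had a median of 1.26 and the alpha and beta rings 0.97 and 1.14, while the 11 non-ATPase cap subunits had 0.20, with 7 of 11 positive.

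Ribosomal protein genes had a median of -0.34, with 37 of 55 negative, and reached 0.00 without day 7 replicate 2. Rps2, of the small subunit, stood at 830.1, 666 and 448 CPM at day 7 and 179, 155 and 220.0 CPM at day 14. Unfolded protein and integrated stress response genes were split, with 12 of 26 positive and a median of -0.08 (from -0.14 without day 14 replicate 3 to 0.22 without day 7 replicate 2). Canx, an endoplasmic reticulum chaperone, stood at 332, 96.9 and 207 CPM at day 7 and 777, 852 and 339 CPM at day 14, and Eif2ak3, the sensor kinase PERK, had 0, 17.2 and 39.1 CPM at day 7 and 0 in all late pools. The chaperone Hspa5 and the stress factor Ddit3 overlapped. Heat shock genes had a median of -0.64 (from -0.84 without day 7 replicate 1 to -0.09 without day 7 replicate 3), with Hsp90aa1 at 2884, 1134 and 2053 CPM at day 7 and 708, 1200.1 and 380.1 CPM at day 14. Antioxidant genes had a median of -0.04 (from -0.12 without day 7 replicate 3 to 0.62 without day 7 replicate 2), and cholesterol synthesis genes one of 0.61 (from 0.12 without day 14 replicate 3 to 1.01 without day 14 replicate 1), with 17 of 22 positive. Pmvk, the phosphomevalonate kinase of that pathway, stood at 12.8, 34.9 and 13.6 CPM at day 7 and 113, 50.3 and 36.0 CPM at day 14, a log2 fold change of 1.86 ± 0.76, with no overlap (edgeR adjusted p 0.442, DESeq2 0.213).

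**Figure D3:**
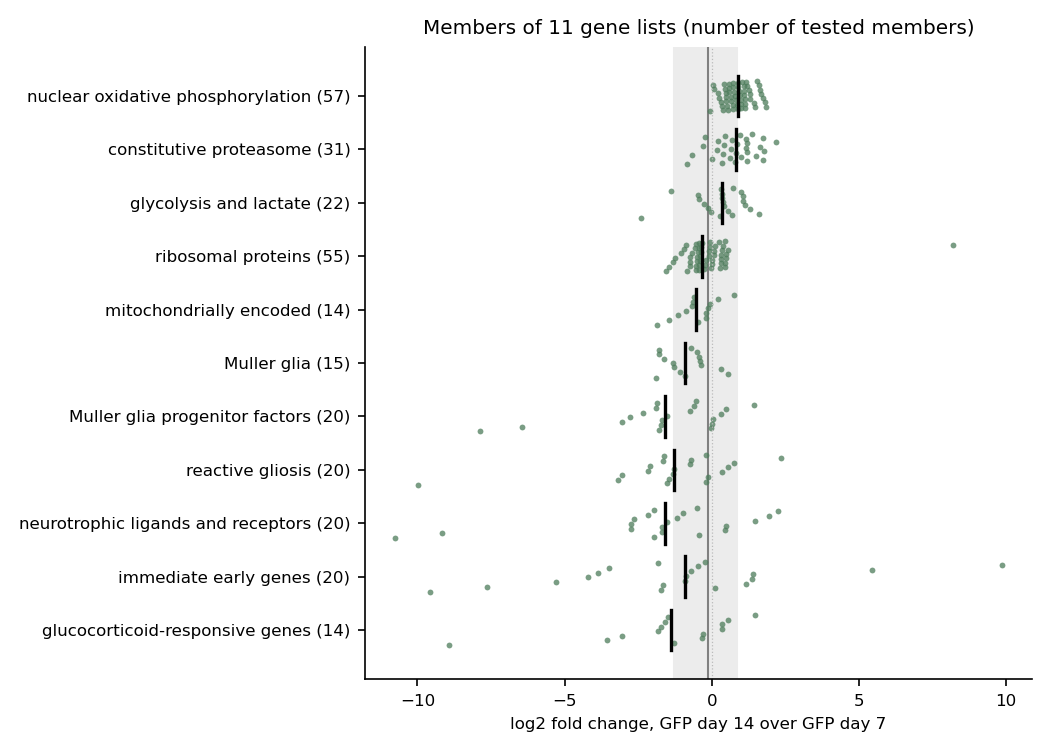
Log2 fold change of day 14 over day 7 for every tested member of 11 lists, 1 point per gene, with the list's median as a black bar. The grey band spans the middle 50% of all tested genes (-1.28 to 0.87) and the grey line their median. Points of the respiratory list lie almost wholly right of 0, and points beyond 5 on either side belong to genes with few or no counts in 1 of the days.

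Müller glia markers had mostly lower values in the late pools. Of 15 markers 13 were negative (median -0.91, -1.45 without day 14 replicate 1), and in 7 (46.7%) every late pool lay below every early pool, against 10.5% of all genes. None passed the test. Glul, the glutamine synthetase that clears glutamate, stood at 3769.5, 5081 and 4666 CPM at day 7 and 3197, 1119.6 and 490.2 CPM at day 14. Aqp4, the water channel of their endfeet, had 486, 367 and 443 CPM at day 7 and 269, 112 and 73.1 CPM at day 14. The late pools were lower in both, with day 14 replicate 1 nearest to the early level. Dkk3, a secreted Wnt pathway protein, had 1777, 5165 and 1499.9 CPM at day 7 and 668, 499 and 696 CPM at day 14, and Rlbp1, the retinaldehyde-binding protein, overlapped at 1739.9, 765 and 1720.1 CPM at day 7 and 1059, 320.2 and 272 CPM at day 14. Apoe and Clu, which make most of the marker sum, overlapped, with Apoe at 38975, 92593 and 55909 CPM at day 7 and 55530.1, 42036 and 112128 CPM at day 14. The summed level therefore showed no separation (exact permutation p 0.8).

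Transcription factors that keep the glial and progenitor state were mostly lower too, with 15 of 20 negative and a median of -1.61 (-0.68 without day 7 replicate 2). In 7 of them (35.0%, against 10.5% of all genes) the late pools lay wholly below the early ones in CPM. Sox9, a glial identity factor, stood at 157, 187 and 132 CPM at day 7 and 27.6, 43.5 and 39.1 CPM at day 14, a log2 fold change of -1.78 ± 0.65 (edgeR adjusted p 0.442). Notch1, the receptor that maintains progenitors, stood at 49.8, 60.3 and 8.95 CPM at day 7 and 0, 0.435 and 0 CPM at day 14, and Id4 at 2.82, 27.8 and 1.64 CPM at day 7 and 0.353, 0 and 0 CPM at day 14. Among genes of Müller glia function, the matrix protein Sparc had 934, 2355 and 1069.7 CPM at day 7 and 576, 364 and 292 CPM at day 14 and the G protein subunit Gnai2 482, 551 and 352 CPM at day 7 and 181, 119 and 97.9 CPM at day 14. Both were lower in every late pool. The function list had a median of -1.19, with 14 of 16 negative.

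The reactive gliosis list, 20 tested genes that glia induce after injury, had a median of -1.30 with 16 negative. Without day 7 replicate 2 the median was -0.08. Gfap, the intermediate filament of reactive glia, stood at 20.4, 40.6 and 2.34 CPM at day 7 and 0, 35.1 and 1.13 CPM at day 14. Vim, another intermediate filament, had 685, 613 and 165 CPM at day 7 and 81.2, 146 and 145 CPM at day 14. Gfap was uneven at both days. In CPM, Vim was lower in all late pools, by little against day 7 replicate 3. With TMM scaling, day 14 replicates 2 and 3 lie above day 7 replicate 3 for Vim. Cp, ceruloplasmin, had 726, 2495 and 788 CPM at day 7 and 253, 169.8 and 338 CPM at day 14, a log2 fold change of -2.10 ± 0.66, and Lcn2, lipocalin 2, had 1.54, 454 and 12.2 CPM at day 7 and 27.4, 5.14 and 17.9 CPM at day 14, where 1 early pool carried the difference. Matrix genes had a median of -0.56 (from -1.97 without day 14 replicate 3 to -0.09 without day 7 replicate 2) that was -0.43 with genes at 0 in a whole day set to their bound, and BMP and TGF-beta genes one of -0.92 (-1.39 without day 14 replicate 2 and -0.35 without day 7 replicate 2). Of the Wnt and Notch genes 13 of 17 were negative (median -0.83, from -1.46 without day 7 replicate 1 to -0.57 without day 7 replicate 2).

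Immediate early genes, which follow recent stimulation, and glucocorticoid-responsive genes had mostly lower values at day 14. The immediate early list had a median of -0.90 (from -1.75 without day 14 replicate 3 to -0.60 without day 7 replicate 1) with 14 of 20 negative, and 5 members had a whole day at 0. Fos stood at 638, 195 and 243 CPM at day 7 and 126, 63.3 and 68.2 CPM at day 14, a log2 fold change of -1.72 ± 0.64. Egr1 had 256, 114 and 81.3 CPM at day 7 and 32.0, 56.6 and 27.2 CPM at day 14. In both, the highest late pool was below the lowest early one. Klf2, a shear-responsive factor, was at 0 in all early pools and had 0, 7.68 and 6.76 CPM in the late ones. The glucocorticoid list had a median of -1.39 (-0.21 without day 7 replicate 2), with 10 of 14 negative. Sgk1, a kinase induced by steroids and stress, stood at 455, 463 and 128 CPM at day 7 and 105, 61.5 and 87.8 CPM at day 14.

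Survival factors and their receptors had a median of -1.60 (-0.67 without day 7 replicate 2), with 15 of 20 negative. Besides Ret, Clcf1, a ligand of the CNTF receptor, had 31.6, 1.70 and 15.4 CPM at day 7 and 0, 0 and 0.0418 CPM at day 14. Among 3 members chosen after their values were seen, 2 were lower in every late pool in CPM. Ntrk2, the BDNF receptor TrkB, had 83.6, 369 and 83.7 CPM at day 7 and 0.745, 39.6 and 63.5 CPM at day 14. With TMM scaling, day 14 replicate 3 lies above day 7 replicates 1 and 3 for Ntrk2. Il6st, the shared receptor chain gp130, had 47.2, 34.2 and 24.0 CPM at day 7 and 1.65, 6.52 and 8.85 CPM at day 14. Bdnf, the ligand, overlapped at 47.9, 139 and 35.8 CPM at day 7 and 27.1, 16.4 and 46.1 CPM at day 14.

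Immune genes differed strongly between pools of the same day. The microglia and macrophage markers were positive in 15 of 15 (median 3.03), but their sum was 24.5, 30.1 and 2993 CPM at day 7 and 25.3, 7140.3 and 10080.1 CPM at day 14. Day 7 replicate 3 and day 14 replicates 2 and 3 held most of this RNA, and the sums of the other 3 pools lay between 24.5 and 30.1 CPM. C1qc, a chain of the first complement component, stood at 0.0533, 0.328 and 169 CPM at day 7 and 0.196, 1237 and 1656 CPM at day 14, and Tyrobp, a signalling adaptor of microglia, at 0, 0.0547 and 25.6 CPM at day 7 and 0.0784, 92.4 and 737 CPM at day 14. The 3 high pools thus belonged to both days, and without day 7 replicate 3 the list median moved to 12.26. The MHC class II list summed to 42.4, 31.5 and 1649.9 CPM at day 7 and 0.314, 2298 and 3883 CPM at day 14, high in the same 3 pools, with all 8 positive and a median of 4.61 (2.96 without day 14 replicate 2). The list shares Ctss with the microglia markers, so the 2 sums are not independent. Cd74 and H2-Aa themselves were high in day 14 replicates 2 and 3 only. Cd74, the invariant chain, had 0.373, 16.5 and 19.1 CPM at day 7 and 0.0784, 277 and 661 CPM at day 14. H2-Aa, a class II alpha chain, had 0, 0.0547 and 1.29 CPM at day 7 and 0, 25.7 and 188 CPM at day 14. Gpnmb, a glycoprotein of phagocytes that also marks pigment cells, differed in having every late pool above every early one, at 0.107, 0.0547 and 5.44 CPM at day 7 and 26.8, 20.4 and 159.6 CPM at day 14 (log2 fold change 5.83 ± 2.41, edgeR adjusted p 0.443).

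Other immune lists were mixed. Complement genes had a median of 1.20 (from 0.25 without day 14 replicate 2 to 2.83 without day 7 replicate 3), the lysosome list 0.40 (from -0.23 without day 14 replicate 3 to 0.73 without day 7 replicate 2) and the list of microglial states 1.38 (from 0.98 without day 7 replicate 1 to 7.15 without day 7 replicate 3). Lgmn, a lysosomal protease, stood at 93.0, 59.1 and 236 CPM at day 7 and 197, 512 and 256 CPM at day 14. C3, the central complement component, had 7.67, 224 and 57.1 CPM at day 7 and 0, 0.181 and 72.8 CPM at day 14, and the chemokine Ccl2 0.0533, 0.328 and 70.4 CPM at day 7 and 0, 8.12 and 0.167 CPM at day 14. Neither followed the day. Chemokine and cytokine genes had a median of -1.15 (from -1.91 without day 14 replicate 2 to -0.27 without day 7 replicate 3), and 9 of 28 had 0 counts in all 6 libraries, among them Tnf, Il6 and Cxcl10. NF-kB and toll-like receptor genes had a median of -0.37 (from -0.50 without day 7 replicate 3 to 0.45 without day 7 replicate 2). Myd88, the toll-like receptor adaptor, stood at 15.2, 12.6 and 0.761 CPM at day 7 and 0, 0.145 and 0.0418 CPM at day 14, but it shares 290 bases with Acaa1a on the other strand. Neutrophil markers left 1 tested gene and T and NK cell markers 0.

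Interferon genes gave 2 directions. Of 30 interferon-stimulated genes 21 were positive, with a median of 1.10 (0.54 without day 14 replicate 3). The list summed to 2462, 5452 and 1081 CPM at day 7 and 9156, 987 and 4794 CPM at day 14, so day 7 replicate 2 lay above day 14 replicates 2 and 3. Isg15, a ubiquitin-like modifier, stood at 2.98, 6.02 and 5.09 CPM at day 7 and 186, 8.22 and 123 CPM at day 14, a log2 fold change of 4.80 ± 1.45 (edgeR adjusted p 0.442, DESeq2 0.00713). Ifit1, which binds foreign RNA, had 216, 35.4 and 153 CPM at day 7 and 486, 47.4 and 451 CPM at day 14. Isg20, an RNA exonuclease, was at 0 in all early pools and had 28.4, 0 and 34.0 CPM in the late ones. Day 14 replicate 2 thus stayed at or near the early level in all 3 genes, and with that library as the only late pool, assumed to vary like the other groups, the list median was -0.65. Interferon-induced GTPases, which act against pathogens inside cells, were negative in 14 of 14 (median -0.78, from -1.28 without day 14 replicate 3 to -0.21 without day 14 replicate 2). In 2 of them (14.3%, against 10.5% of all genes) every late pool was below every early one. Gbp2 stood at 226, 95.3 and 124 CPM at day 7 and 32.1, 14.0 and 18.5 CPM at day 14. Iigp1 had 189, 66.1 and 74.6 CPM at day 7 and 2.55, 5.00 and 21.1 CPM at day 14. These are the 2 members without overlap.

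Interferon receptors and their transcription factors had a median of -0.58 (from -1.23 without day 14 replicate 3 to -0.19 without day 7 replicate 1). Irf7, a transcription factor of the interferon response, overlapped at 87.4, 9.09 and 13.3 CPM at day 7 and 10.7, 8.26 and 42.4 CPM at day 14. Stat3 had 76.8, 115 and 63.7 CPM at day 7 and 8.22 to 34.3 CPM at day 14, lower in every late pool. The MHC class I list was evenly split, with 9 of 18 positive and a median of 0.04 (from -0.70 without day 14 replicate 3 to 0.34 without day 14 replicate 1), which turned to -0.07 with DESeq2 size factors. B2m, the light chain of class I molecules, had 889.6, 3449 and 1694 CPM at day 7 and 429, 344 and 834 CPM at day 14, a log2 fold change of -1.55 ± 0.70. In CPM the highest late pool was below the lowest early one. TMM scaling, with factors of 0.722 for day 14 replicate 3 and 1.25 for day 7 replicate 1, reverses the order of these pools.

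Immunoglobulin RNA came almost wholly from 1 library. Igkc, the kappa light chain, stood at 0.0533, 0 and 4.45 CPM at day 7 and 3.45, 24.2 and 74564 CPM at day 14. Jchain, which joins secreted IgM and IgA, had 0, 2.46 and 0.176 CPM at day 7 and 1.06, 21.3 and 30347 CPM at day 14. Ighm, the IgM heavy chain, named after its values were seen, had 0, 0 and 12.8 CPM at day 7 and 1.25, 21.8 and 27573 CPM at day 14. Day 14 replicate 3 held this RNA, while Ms4a1, a B cell surface protein, had 0 counts in that pool. Igkc, Ighm and Jchain made up 99.7% of the marker sum there. With immunoglobulin genes left out of the library sizes, edgeR still called 0 genes.

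**Figure D4:**
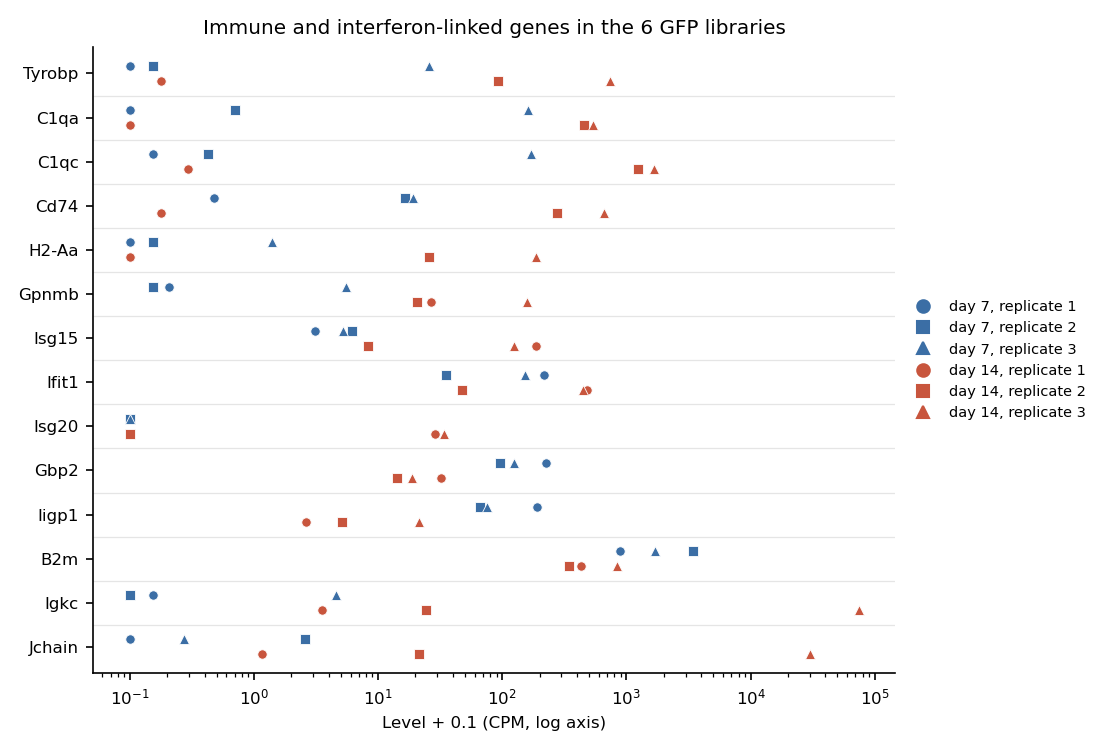
Level of 14 immune and interferon-linked genes, in CPM plus 0.1 on a log axis, in the 6 GFP libraries (day 7 blue, day 14 red, 1 symbol per replicate number). Microglia genes are high in day 7 replicate 3 and day 14 replicates 2 and 3, the 2 MHC class II genes shown in the latter pair, interferon-stimulated genes in day 14 replicates 1 and 3, and Gbp2, Iigp1 and B2m are lower in all late pools. For B2m this order changes with TMM scaling.

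Neuronal genes showed no common direction. Ganglion cell markers had a median of -0.91 with 8 of 14 negative. That median ran from -1.58 to 0.32 when 1 GFP library was left out. Rod markers had a median of -0.76 (from -1.43 without day 14 replicate 2 to -0.28 without day 14 replicate 1) with 12 of 15 negative. By the sums given above, each day held pools with much and with little rod RNA. Guca1b, a calcium sensor of the rod, had 1299, 175 and 1384 CPM at day 7 and 79.3, 299 and 154 CPM at day 14, and Gnat1, rod transducin, 14275, 1927 and 11679.8 CPM at day 7 and 451, 3156 and 1419 CPM at day 14. Phototransduction genes had a median of -0.63 (from -1.42 without day 14 replicate 2 to -0.08 without day 14 replicate 1) and photoreceptor transcription factors -0.21 (from -0.99 without day 14 replicate 2 to 0.19 without day 7 replicate 3). Without day 14 replicates 1 and 3 the rod median was 0.22 and the phototransduction median 0.28, with the lone late library assumed to vary like the other groups. Cone markers had a median of 0.44 with 6 of 8 positive, which turned to -3.31 without day 14 replicate 2.

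Bipolar cell markers, from the interneurons between photoreceptors and ganglion cells, had 11 of 15 positive values and a median of 1.02, which stayed between 0.78 and 1.28 without any 1 GFP library. Pcp2, a marker of rod and ON bipolar cells, stood at 517, 214 and 252 CPM at day 7 and 1978, 1192 and 425 CPM at day 14. Prkca, protein kinase C alpha of rod bipolar cells, had 139.6, 26.9 and 95.7 CPM at day 7 and 401, 167 and 111 CPM at day 14. In CPM, day 14 replicates 1 and 2 were high and replicate 3 was within the early range. With TMM scaling, day 14 replicate 3 lies above every early pool for both Pcp2 and Prkca. Horizontal cell markers had a median of 0.85 (3.77 without day 7 replicate 2), with Calb1, a calcium-binding protein, at 72.2, 1403 and 108 CPM at day 7 and 616, 1398 and 8428 CPM at day 14. Tfap2b, a transcription factor of amacrine and horizontal cells, stood at 122, 87.2 and 73.1 CPM at day 7 and 245, 129 and 253 CPM at day 14, and Calb2 of amacrine cells at 48.3, 0.493 and 18.4 CPM at day 7 and 237, 59.7 and 210.0 CPM at day 14. In both of these the late pools lay above the early ones, while the amacrine list as a whole had a median of -0.30 (from -1.03 without day 14 replicate 2 to 0.29 without day 14 replicate 1). Synaptic vesicle genes had a median of 0.25 (from -0.01 without day 7 replicate 2 to 0.56 without day 7 replicate 1) and voltage-gated channels 0.03 (from -0.32 without day 14 replicate 2 to 0.59 without day 7 replicate 1). Rab3a, a vesicle GTPase, had 1308, 287 and 911 CPM at day 7 and 2202, 2107 and 1367 CPM at day 14, with no overlap.

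Growth and stress genes of the ganglion cell injury response overlapped between the days in Gap43, Atf3 and Jun. Gap43, a growth cone protein, stood at 1.01, 0 and 1.17 CPM at day 7 and 0, 35.5 and 8.31 CPM at day 14. Atf3 stood at 7.41, 0.0547 and 42.3 CPM at day 7 and 0.902, 0 and 0.125 CPM at day 14, Jun at 6.77, 8.10 and 27.0 CPM at day 7 and 0, 2.14 and 20.3 CPM at day 14 and Sprr1a at or under 0.109 CPM in every pool. Regeneration-associated genes had a median of -0.61 (from -1.09 without day 14 replicate 3 to -0.39 without day 7 replicate 3), with 17 of 24 negative, and DLK-JNK pathway genes one of 0.58 that turned to -0.04 without day 14 replicate 3. Cell death genes had a median of -0.54 (-0.88 without day 7 replicate 1 and 0.14 without day 7 replicate 3). Bcl2l1, a survival protein of the Bcl2 family, stood at 82.6, 40.8 and 4.15 CPM at day 7 and 4.59, 3.95 and 2.05 CPM at day 14, a log2 fold change of -3.32 ± 1.06 (edgeR adjusted p 0.442, DESeq2 0.00884), with 1 early pool at the late level. p53 targets had a median of -0.81 (from -1.26 without day 14 replicate 2 to -0.12 without day 7 replicate 1), and Trp53 itself stood at 34.9, 19.3 and 18.8 CPM at day 7 and 0, 3.08 and 8.18 CPM at day 14, lower in every late pool. Cell cycle genes had a median of -1.20 (from -4.48 without day 14 replicate 3 to -1.10 without day 14 replicate 1) over 11 tested genes, and 6 of 20, with Mki67 among them, had 0 counts in all 6 libraries.

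Whether the control course differed from that under Olig1 was asked by the interaction in the same fit. For 0 of 14985 genes did the courses differ at an adjusted p under 0.05 (0.0%, smallest 0.142), with 1484 at an unadjusted p under 0.05 (9.9%). Voom called 0 and DESeq2 527 (3.52%). In the Olig1 pools alone, the course gave 1 gene higher (0.00667%) and 4 lower (0.0267%). Nothing is therefore called particular to the GFP pools, and the values are given side by side. Of the 12 genes higher and the 12 lower above, 9 and 5 had the same sign in the Olig1 pools. Srsf2 had a log2 fold change of 3.23 ± 0.65 in the GFP pools and 2.29 ± 0.62 in the Olig1 pools, and Mrpl58 3.35 ± 0.66 and 2.31 ± 0.63. Shank1 had -3.24 ± 0.61 and -4.48 ± 0.64 and passed the test in the Olig1 course (edgeR adjusted p 0.0270). Kif5a had 5.52 ± 1.18 and -1.60 ± 0.98, and the difference did not pass (edgeR adjusted p 0.341). Ret, at 0 in the late GFP pools, had 0.60 ± 1.51 in the Olig1 pools.

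The respiratory list had a median of 0.87 in the GFP pools and 0.04 in the Olig1 pools, where 32 of 57 genes were positive. For mitochondrially encoded genes the medians were -0.55 and 0.48. Müller glia markers had -0.91 and 1.31, and 9 of 15 had an unadjusted interaction p under 0.05, against 9.9% of all genes. Glul was -1.33 ± 0.67 and 2.14 ± 0.68 (edgeR adjusted p of the difference 0.341). Sgk1 was -1.73 ± 0.67 and 3.66 ± 0.72 (adjusted p of the difference 0.264). The gliosis list had medians of -1.30 and -1.32, and the glucocorticoid list -1.39 and -1.52. Microglia markers, which split pools within a day, had 3.03 and -5.87. Ifit1 was 1.75 ± 0.88 in the GFP pools and -7.40 ± 1.15 in the Olig1 pools, where it passed the test (edgeR adjusted p 0.0282), and the difference did not (adjusted p 0.142).

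**Figure D5:**
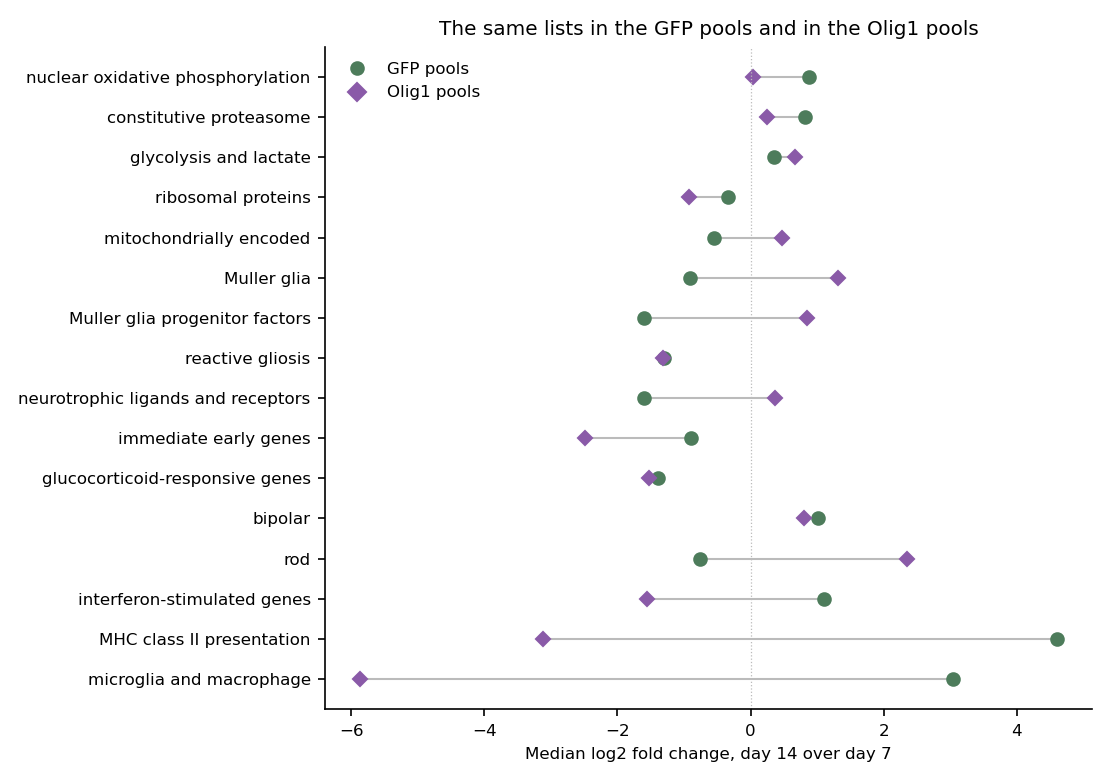
Median log2 fold change of day 14 over day 7 for 16 lists, in the GFP pools (green circles) and in the Olig1 pools (purple diamonds), joined by a line for each list. Gliosis, glucocorticoid and bipolar medians lie close together, and those of Müller glia, rods, interferon-stimulated genes and microglia lie on opposite sides of 0.

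Genes whose days did not overlap were set against the same count in the Olig1 pools. Of the 593 genes above at day 14 with GFP, 59 were also above with Olig1 (9.95%, against 5.55% of all genes), and 29 were below (4.89%, against 10.6%). The 59 were 7.09% of the 832 genes above with Olig1, against 3.96% of all genes above with GFP. Of the 1567 below with GFP, 195 were below with Olig1 (12.4%, against 10.6% of all genes) and 75 above (4.79%, against 5.55%). The 195 were 12.3% of the 1587 genes below with Olig1, against 10.5% of all genes below with GFP. The shares of shared falls were thus near those of all genes. These are counts in CPM and shift with the scaling as described.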

How the data were processed

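Pools of cells amplified with SMART-Seq HT were sequenced as 12 libraries in 4 groups of 3. The authors deposited raw read counts per gene, per sample and in a table of the whole series. Reads were checked with FastQC, aligned with HISAT2 to mm10 and counted with HTSeq, per the submitters' processing notes, and no version or strand setting was found. The series table was used, because 2 of the GFP sample files lack 1193 and 1452 genes. No gene differed in the rest. Gene positions and exon lengths came from GENCODE release M21 on GRCm38.

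Genes were filtered with filterByExpr (minimum count 10), scaled by TMM and tested with the quasi-likelihood test of edgeR 4.0.16 (R 4.3.3), with 4 group means, robust dispersions and Benjamini-Hochberg adjustment at 0.05, and the script was tested on simulated data. DESeq2 1.42.0 and limma 3.58.1 (voom with sample weights) were alternatives, with other filters, size factors, a replicate block, the GFP libraries alone and each GFP library left out. CPM is a gene's count scaled to a library total of 1000000, and marker sums were tested on log2(sum + 1 CPM). Errors of log2 fold changes are standard errors. Genes named are the 12 with the smallest p on each side, leaving out predicted models, pseudogenes and immunoglobulin segments, 2 per list with the smallest p, and a fixed panel of 39 genes. Members and lists were chosen with earlier results of these data known, so nothing here is independent support. Some genes that the rule names are not reported here.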

Additional observations from a re-analysis of the deposited data

How the results depend on the processing

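edgeR called 0 genes in either direction under DESeq2 size factors, a stricter filter, the GFP libraries alone, without immunoglobulin genes and without any 1 GFP library (0 to 0). The DESeq2 Wald test called 218 higher and 428 lower and 30 list members, voom 3, 15 and 1, and edgeR without the filter 10, 3 and 0. Genes not overlapping above numbered 1001 with TMM-scaled CPM. The interaction gave 527 calls with DESeq2, 40 without the filter, 1 with the replicate block, 0 to 1 without 1 GFP library (1 without day 14 replicate 2) and 2 without day 14 replicates 1 and 3, an alternative chosen after seeing the data. The cause of these differences was not tested. With the replicate block the days gave 0 calls (smallest edgeR adjusted p 0.0885). Same-numbered pools did not deviate together (correlations of deviations 0.04, -0.05 and 0.02 over 12260 genes). With a spread between pools this large, the check cannot exclude that equal numbers share a mouse or a batch. The median log2 fold change of all genes ran from -0.29 to 0.00 without 1 GFP library. Of 158 named genes, 30 changed sign under at least 1 alternative, and of 55 list medians 25 did, 18 of them without 1 library. Each value rests on 3 pools a day, and levels under the floors of 0.109 to 0.176 CPM were not detectable at this depth.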
